A study of Mus musculus with 2 samples.

Results

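The genes described here are 36 genes of DNA replication in retinal cells of mouse pups, from the proteins that mark replication origins to the enzymes that make deoxynucleotides. They were chosen by symbol from the 32285 genes of the deposited tables, and each symbol matched 1 gene. Retinas were taken at postnatal day 6, dissociated and enriched for endothelial cells with beads against CD31, a surface protein of these cells. There was 1 single-cell library per genotype. The control carried floxed Alk1 alleles (Alk1f/f), and the second library carried the same alleles with Cdh5 CreERT2, a tamoxifen-inducible Cre driven by the promoter of the endothelial cadherin gene (called Alk1 ECKO here). Both groups thus share the floxed alleles, and Cre was in the second alone. The labels used here give neither the tamoxifen schedule nor the number of pups in each library.

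Replication begins when the origin recognition complex, with CDC6 and CDT1, loads the MCM helicase onto DNA in G1. In S phase the helicase is activated by CDC45, MCM10 and the GINS complex, primase and polymerases copy the strands, and PCNA, a ring loaded by the RFC complex, holds the polymerases on DNA. Many of these genes are transcribed in a burst at the G1/S boundary by E2F factors, so their transcripts mark cells that divide. In the retina of a mouse pup, sprouting endothelial cells, pericytes and late progenitors still divide, while rods have left the cycle.

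The control library held 8739 barcodes and 54800465 UMIs (unique molecules counted), and the Alk1 ECKO library 5308 barcodes and 62728605 UMIs. After filters and removal of likely doublets, 7409 and 4093 cells were retained, and the libraries shared 20 barcode sequences. Cells were clustered without the 36 genes and without other listed cycle and histone genes. The classes were thus not drawn from the genes described, but not every gene tied to replication was left out. The endothelial class held 312 control and 1273 Alk1 ECKO cells, mural cells (pericytes and smooth muscle) 11 and 149, microglia or macrophages 77 and 286, and glia and progenitors 810 and 198. The endothelial label rests on level. The 18 endothelial markers summed to 10788.5 CPM (control) and 9437.6 CPM (Alk1 ECKO) in this class, against 47.0 and 75.9 CPM in rods. Detection alone does not separate the classes, since control rods also had UMIs of all 18 markers. Acvrl1, which encodes ALK1, stood at 115 CPM in control against 119 CPM in Alk1 ECKO endothelial cells (log2 ratio relative to the median gene 0.26, 0.16 to 0.35). CPM is the UMIs of a gene relative to all UMIs of the class, on the usual CPM scale. The deleted exons are not given in the labels, so a 3' count checks neither the deletion nor the label.

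The glia and progenitor class was made of 2 clusters. One, called Müller glia-like (395 control and 113 Alk1 ECKO cells), was led by the mature glial genes Rlbp1 and Slc1a3. The other, called progenitor-like (415 and 85 cells), had the higher Fgf15 (42.4 against 9.33 CPM) and Sfrp2 (46.4 against 14.4 CPM). Its name rests on these 2 genes. By marker list both clusters were Müller glia, with a mean log2 ratio of 3.88 in the Müller glia-like and 2.99 in the progenitor-like cluster. The progenitor list scored 2.71 and 2.69. Hes5 was among the leading genes of both. The separation was one of degree: 16 of 19 Müller markers were past 2-fold in both, as were 12 of 16 progenitor markers in the progenitor-like and 11 of 16 in the Müller glia-like cluster. Rods (3554 and 453 cells), which no longer divide, served as the background level. With 1 library per genotype no test across animals is possible, and every interval below is a 95% interval that covers counting error alone. In such data fewer dividing cells and less RNA per dividing cell cannot be told apart from a summed level.

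Replication transcripts were most abundant in the progenitor-like, endothelial and mural classes. In microglia their sum was below that of rods, with intervals that overlapped in Alk1 ECKO. In control, the 36 genes summed to 2899 CPM (2831 to 2968) in progenitor-like cells, 1553 CPM (1529 to 1577) in endothelial cells and 1309 CPM (1129 to 1510) in mural cells. In Alk1 ECKO the same sums were 1816 CPM (1681 to 1960), 1325 CPM (1314 to 1337) and 2295 CPM (2234 to 2356). Rods stood at 520 CPM (508 to 532) and 539 CPM (499 to 581), and microglia at 410 CPM (367 to 456) and 483 CPM (460 to 508). Müller glia-like cells lay at 631 CPM (602 to 661) and 436 CPM (387 to 489). The order of progenitor-like, endothelial and mural cells differed between the libraries, while microglia lay below the endothelial class in both.

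**Figure D1:**
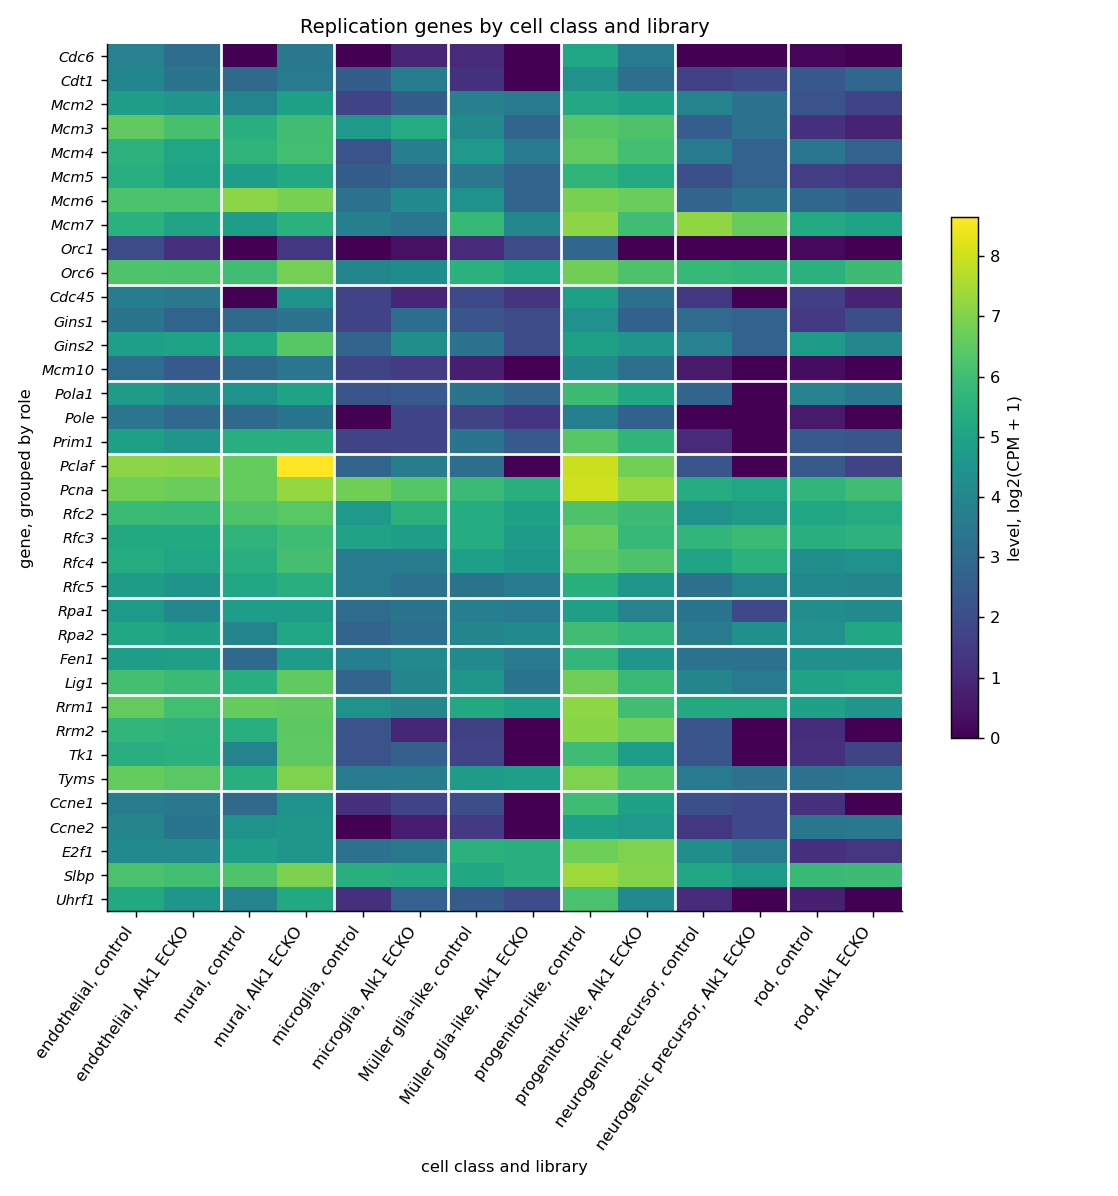
Level of each of the 36 genes, as log2(CPM + 1), in 7 cell classes (columns, control and Alk1 ECKO side by side), with genes in rows grouped by role from origin licensing (top) to S-phase entry (bottom). Endothelial, mural and progenitor-like columns are bright over most rows, while in microglia, Müller glia-like cells, neurogenic precursors and rods a few rows such as Pcna, Slbp, Orc6 and the Rfc genes carry most of the signal.

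A gene was counted as different between 2 classes when it was at least 2-fold apart in both libraries with both counting intervals off equality. By this rule 17 of 36 genes were higher in endothelial cells than in rods and 0 lower, where 20.4% of all 11880 genes compared were higher. The median log2 ratio of the 36 genes was 2.35 in control and 0.96 in Alk1 ECKO, against -0.29 and -0.36 over all genes. These medians do not compare the libraries. Alk1 ECKO rods held 1251391 UMIs and 29 of the 36 genes, control rods 13080550 UMIs and all 36. Genes with 0 UMIs entered the ratio at a floor, which lowers it. Control sums were 1553 CPM in endothelial cells and 520 CPM in rods, against 1325 and 539 CPM for Alk1 ECKO. Progenitor-like cells exceeded Müller glia-like cells in 15 of 16 genes measured, the exception being Rfc2, and were lower in 0 (2.13% and 2.29% of all genes). Against rods progenitor-like cells were higher in 11 of 17 (9.7% of all genes). In control, 79 mitosis genes, also left out of clustering, summed to 11973 CPM in progenitor-like and 1303 CPM in Müller glia-like cells. Whether cycle state drew these 2 clusters apart was not tested. Microglia were lower than endothelial cells in 23 of 36 genes (21% of all genes), and against rods 1 gene was higher (Mcm3) and 4 were lower of 20 measured (16.4% and 39% of all genes). The median log2 ratio of those 20 genes to rods was -0.51 in control and -0.36 in Alk1 ECKO, against -0.72 and -0.84 over all genes. Mural cells were higher than rods in 8 of 24 genes measured (11.8% of all genes), and 0 of 36 genes differed between mural and endothelial cells in both libraries (4.09% of all genes higher and 4.54% lower), a comparison that rests on 144349 UMIs from 11 control mural cells.

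Among the genes of origin licensing, the helicase subunits Mcm2 to Mcm6 were higher in endothelial cells than in rods, and Mcm7 was not called. Mcm3 stood at 91.8 CPM in control against 68.1 CPM in Alk1 ECKO endothelial cells, at 83.7 and 73.5 CPM in progenitor-like cells, and at 1.38 and 0.80 CPM in rods. Microglia, low for most of the genes, held Mcm3 at 24.4 and 38.7 CPM. Mcm5 was at 42.1 and 31.6 CPM in endothelial cells and 1.99 and 1.60 CPM in rods. Cdc6, the loader of the helicase, was at 13.2 and 7.57 CPM in endothelial cells and at 33.1 and 10.9 CPM in progenitor-like cells, while Alk1 ECKO rods and control microglia had 0 UMIs of it.

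Mcm7, a subunit of the same helicase ring, had a pattern of its own. Its level in neurogenic precursors (343 and 72 cells), the cells between progenitors and neurons, was 146 CPM in control against 97.1 CPM in Alk1 ECKO, against 141 and 62.6 CPM in progenitor-like and 44.7 and 32.3 CPM in endothelial cells. It was the single one of 10 measured genes that was higher in these precursors than in rods, and 1 other was lower. Both counts were near the shares of all genes (7.48% higher and 15.8% lower). In rods Mcm7 stood at 37.6 and 31.2 CPM. The other 5 MCM2-7 subunits lay between 3.28 and 13.7 CPM in control and between 5.55 and 8.33 CPM in Alk1 ECKO precursors. No other subunit of the ring thus reached the level of Mcm7 there. The Alk1 ECKO precursors held 360270 UMIs of all genes, so their values for these 5 subunits rest on a few UMIs each.

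Among genes of the clamp and its loader, some were nearly absent from rods and others were not. Pclaf, a PCNA-binding factor, was at 141 and 137 CPM in endothelial, 97.0 and 398 CPM in mural and 249 and 112 CPM in progenitor-like cells, against 4.36 and 2.40 CPM in rods. Pcna itself, which also serves in DNA repair, was at 111 and 99.6 CPM in endothelial cells and 50.5 and 62.3 CPM in rods, and in microglia it stood at 108 and 82.0 CPM. The loader subunits Rfc2 (58.1 and 55.6 CPM in endothelial cells) and Rfc3 (37.3 and 37.0 CPM) were at 34.7 and 39.2 CPM and at 41.7 and 47.1 CPM in rods. For Rfc3 the value in rods was above that in endothelial cells in both libraries.

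All 4 genes of nucleotide supply were higher in endothelial cells than in rods. Rrm2, the regulated subunit of ribonucleotide reductase, was at 51.1 and 47.1 CPM in endothelial and 136 and 106 CPM in progenitor-like cells. In rods it stood at 1.15 CPM in control, with 0 UMIs in Alk1 ECKO. Its partner Rrm1 was at 94.2 and 63.7 CPM in endothelial cells and 29.6 and 21.6 CPM in rods. Thymidine kinase Tk1 (42.1 and 45.3 CPM in endothelial cells) and thymidylate synthase Tyms (95.9 and 85.1 CPM) were at 1.30 and 2.40 CPM and at 8.56 and 9.59 CPM in rods.

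Of the genes of S-phase entry, E2f1 was led by glia. This transcription factor gene was at 105 and 125 CPM in progenitor-like and 46.0 and 43.6 CPM in Müller glia-like cells, against 16.7 and 15.9 CPM in endothelial cells. Müller glia-like cells exceeded rods in 2 of 13 measured genes, E2f1 and Tyms (11.9% of all genes). Progenitor-like cells exceeded endothelial cells in 7 of 36 genes and were lower in 0 (13.3% and 10.4% of all genes): E2f1, the cyclin E genes Ccne1 and Ccne2, Prim1, Rfc4, Rrm2 and Slbp, whose product binds histone mRNA. Prim1, the catalytic primase subunit, was at 83.7 and 49.0 CPM in progenitor-like and 29.2 and 21.9 CPM in endothelial cells.

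To count cells rather than molecules, each cell was thinned to 3000 UMIs and called replicating when it held UMIs of at least 3 different genes of the 36. Endothelial cells reached 37.9% (32.4 to 43.6, 114 of 301 cells) in control and 40.6% (37.6 to 43.7, 415 of 1022) in Alk1 ECKO, after 11 and 251 shallower cells were left out. Progenitor-like cells reached 55.8% (50.5 to 61.1) and 39.3% (27.1 to 52.7), and Müller glia-like cells 23.6% (19.5 to 28.1) and 10.7% (5.45 to 18.3). Rods, which set the background of the rule, gave 16.5% (14.4 to 18.7) and 15.2% (9.10 to 23.2), on the 1190 of 3554 and 112 of 453 rods that held enough UMIs. Before thinning and with the shallow cells, the median depth of rods was 2608 and 2196 UMIs, against 19413.5 and 16259 for the endothelial class. Microglia, at 11.9% in both libraries (4.91 to 22.9 and 7.85 to 17.1), were not above that background. Alk1 ECKO mural cells reached 46.9% (38.5 to 55.4), and 1 of 11 control mural cells met the rule.

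The rule draws a line through a range, and many cells lie near it. In control, 57 endothelial cells held exactly 2 and 30 exactly 3 of the genes, and in Alk1 ECKO 182 and 113. Without thinning the endothelial shares were 83.0% and 76.3%, and those of rods 21.8% and 17.0%. With at least 5 genes the endothelial shares were 22.3% and 21.0%, so which library was the higher of the pair changed with the minimum. The intervals of the 2 libraries overlapped at every thinned depth and minimum tried.

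**Figure D2:**
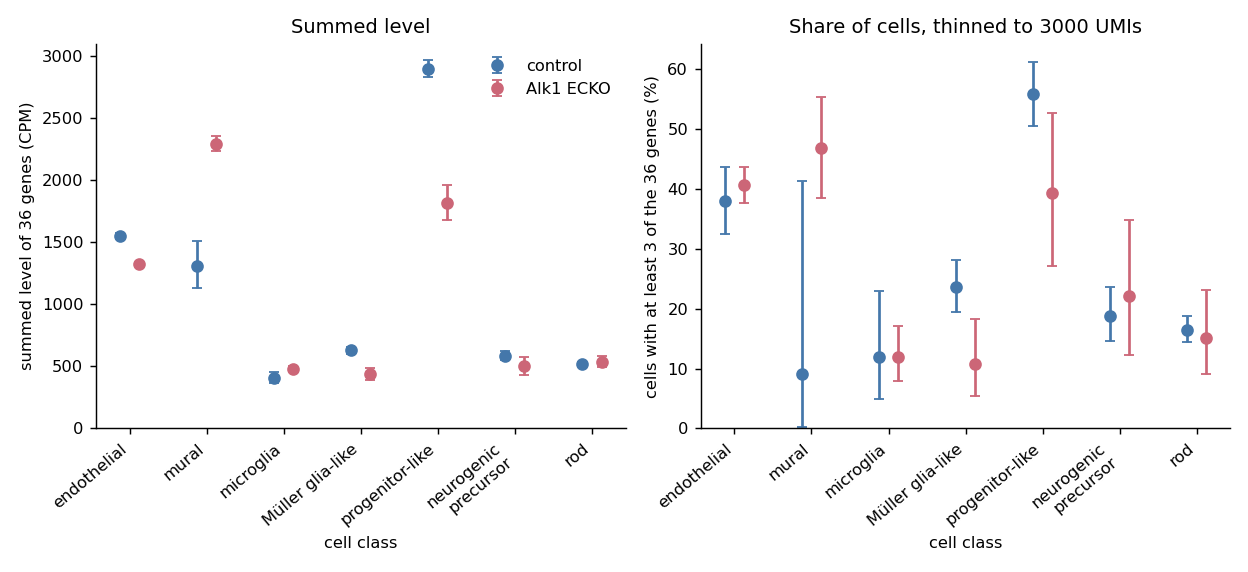
Left, summed level of the 36 genes in CPM, with exact Poisson intervals, and right, percent of cells with UMIs of at least 3 of the genes after thinning to 3000 UMIs, with Clopper-Pearson intervals, for 7 cell classes in control (blue) and Alk1 ECKO (red). Rods, the non-dividing background, sit at 520 and 539 CPM and at 16.5% and 15.2%, and endothelial cells at 37.9% and 40.6%.

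Which of the 36 genes follow the cell cycle was examined within the endothelial class. Cells of both libraries were split by 79 genes of mitosis that include none of the 36: 779 cells had at least 3 UMIs of that list after thinning, 137 had 0 and 407 lay between. All 36 genes had a higher level in the first cells, with a median log2 ratio of 2.59, against -0.08 over all genes. For 18 of 36 the counting interval lay above 3-fold, where 1.62% of all 12124 genes measured did. The 2 sets of cells held 34708739 and 2877387 UMIs. The mitosis list alone is no marker of division at this depth, since 39.2% of control and 30.4% of Alk1 ECKO rods had at least 3 of its UMIs.

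Rrm2, Pclaf and Tk1 had the highest point values between endothelial cells with and without mitosis transcripts. Rrm2 stood at 66.3 CPM in these cells and 1.39 CPM in cells without (47.7-fold, log2 5.58, 4.22 to 7.45). Pclaf was at 189 and 4.52 CPM (41.9-fold, log2 5.39, 4.61 to 6.30), and Tk1 at 60.7 and 2.43 CPM (24.9-fold, log2 4.64, 3.60 to 5.96). Cdc45, the helicase activator, was at 13.9 CPM in the first cells and had 0 UMIs in the second. With that 0 counted as 3 over all cells of the set it was 13.3-fold higher. Its interval on the log2 scale began at 3.43 and was open above. That open interval does not place Cdc45 below Tk1. The wide interval of Pole, the catalytic subunit of polymerase epsilon, does not place Pole below Tk1 either (14.3-fold, log2 3.83, 1.97 to 6.89). At the other end were Mcm6 (79.8 and 42.4 CPM, 1.88-fold, log2 0.91, 0.65 to 1.19), Rfc2 (2.08-fold), Slbp (2.12-fold) and Rfc3 (2.30-fold).

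The 6 subunits of the MCM2-7 ring, which act as 1 complex, differed in this respect. Mcm5 was 9.05-fold higher in cells with mitosis transcripts and Mcm4 4.58-fold, while Mcm7 (3.59-fold), Mcm2 (3.01-fold), Mcm3 (2.83-fold) and Mcm6 (1.88-fold) had intervals that reached below 3-fold. The interval of Mcm5 on the log2 scale, 2.43 to 4.05, lay above that of Mcm6, 0.65 to 1.19. The same spread was found in the clamp loader, where Rfc5 (8.29-fold) and Rfc4 (6.18-fold) stood apart from Rfc3 and Rfc2. In ribonucleotide reductase, Rrm1 was 5.90-fold higher and Rrm2 47.7-fold.

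A second split used the 36 genes themselves. For each gene, endothelial cells with UMIs of at least 3 of the other 35 genes were set against cells with 0 of them. Rrm2 (40.1-fold) and Pclaf (27.8-fold) again led, with Tk1 at 22.5-fold, and Rfc2 (1.98-fold), Rfc3 (2.05-fold), Mcm6 (2.11-fold) and Slbp (2.31-fold) again closed the order. In progenitor-like cells, where 23 cells lacked mitosis transcripts, the intervals of 3 of 35 genes lay above 3-fold (1.24% of all genes). Rrm2 was 23.2-fold higher, on 1 UMI in the cells without. Pclaf (13.6-fold) and Lig1 (5.81-fold) had 0 UMIs there, counted as 3. Their intervals on the log2 scale began at 3.47 and 2.23 and were open above.

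**Figure D3:**
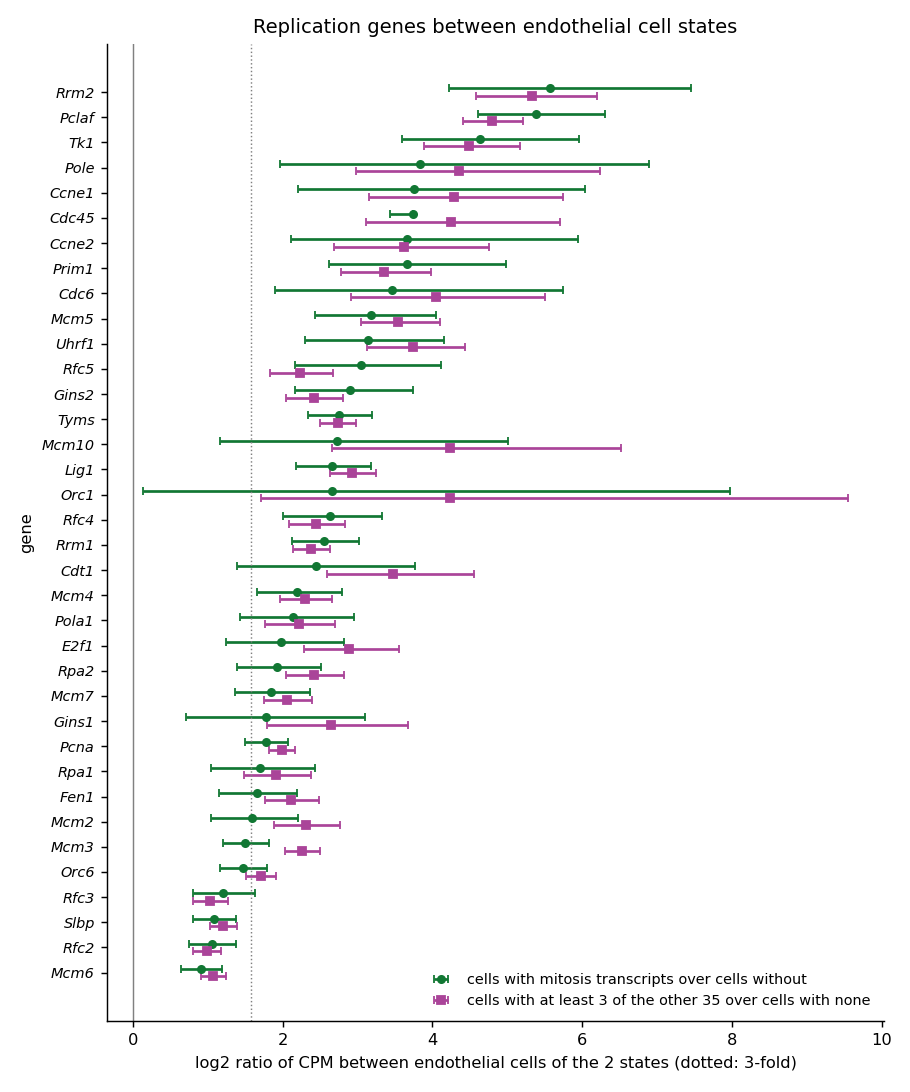
Log2 ratio of CPM for each of the 36 genes in endothelial cells of both libraries, between cells with at least 3 UMIs and cells with 0 UMIs of the mitosis list (green circles) and between cells with at least 3 and cells with 0 of the other 35 genes (purple squares). Bars are counting intervals, open-ended above for Cdc45 in the first split, the dotted line is 3-fold, and genes run from Rrm2 (47.7-fold) at the top to Mcm6 (1.88-fold) at the bottom.

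The promoters of the genes at both ends of that order are shown to compare them for E2F-type words, since E2F factors drive many genes of this family. Sequences come from RefSeq (GRCm38.p6) and run from 250 bases before to 50 bases after the start of the gene, 5′ to 3′ on the strand of the gene. Of the 36 genes, 30 matched the table. Capitals mark matches to TTTCCCGC, TTTGGCGC, TTTCGCGC or TTTGCCGC on either strand, matches of which may overlap. First come the 3 genes with the largest point ratios in endothelial cells, then the 3 with the smallest ratios that the table holds. Last comes Mcm5, the most restricted MCM subunit in those cells.
Rrm2 (chr12:24708004-24708303, plus strand): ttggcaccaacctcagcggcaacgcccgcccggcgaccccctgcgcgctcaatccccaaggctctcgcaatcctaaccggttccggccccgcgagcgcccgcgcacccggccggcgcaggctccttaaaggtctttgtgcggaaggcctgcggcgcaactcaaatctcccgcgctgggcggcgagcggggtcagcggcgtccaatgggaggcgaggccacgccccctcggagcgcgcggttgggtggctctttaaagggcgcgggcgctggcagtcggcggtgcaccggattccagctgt
Pclaf (chr9:65890073-65890372, plus strand): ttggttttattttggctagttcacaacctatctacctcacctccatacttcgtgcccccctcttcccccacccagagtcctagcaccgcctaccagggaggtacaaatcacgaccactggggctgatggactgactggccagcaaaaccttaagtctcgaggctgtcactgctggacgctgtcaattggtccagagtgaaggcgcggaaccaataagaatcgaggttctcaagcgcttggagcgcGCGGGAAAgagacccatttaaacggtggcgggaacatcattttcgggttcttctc
Tk1 (chr11:117825965-117826264, minus strand): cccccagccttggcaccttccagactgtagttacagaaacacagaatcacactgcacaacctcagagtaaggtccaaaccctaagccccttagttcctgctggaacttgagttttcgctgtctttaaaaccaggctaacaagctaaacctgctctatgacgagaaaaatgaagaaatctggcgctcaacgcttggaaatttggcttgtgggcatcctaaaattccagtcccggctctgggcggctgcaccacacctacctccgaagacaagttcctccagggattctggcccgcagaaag
Rfc3 (chr5:151651159-151651458, minus strand): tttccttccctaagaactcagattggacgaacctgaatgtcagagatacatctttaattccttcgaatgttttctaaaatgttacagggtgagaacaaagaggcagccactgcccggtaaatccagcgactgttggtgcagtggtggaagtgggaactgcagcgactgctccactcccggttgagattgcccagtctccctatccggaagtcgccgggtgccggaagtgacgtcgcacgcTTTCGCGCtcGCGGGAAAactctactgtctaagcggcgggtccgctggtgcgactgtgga
Slbp (chr5:33652525-33652824, minus strand): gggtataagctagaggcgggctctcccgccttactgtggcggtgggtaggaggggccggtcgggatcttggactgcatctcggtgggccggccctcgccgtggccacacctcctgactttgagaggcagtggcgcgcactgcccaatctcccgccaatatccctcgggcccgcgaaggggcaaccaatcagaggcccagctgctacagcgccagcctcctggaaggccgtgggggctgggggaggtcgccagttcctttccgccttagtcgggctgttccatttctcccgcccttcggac
Mcm6 (chr1:128359656-128359955, minus strand): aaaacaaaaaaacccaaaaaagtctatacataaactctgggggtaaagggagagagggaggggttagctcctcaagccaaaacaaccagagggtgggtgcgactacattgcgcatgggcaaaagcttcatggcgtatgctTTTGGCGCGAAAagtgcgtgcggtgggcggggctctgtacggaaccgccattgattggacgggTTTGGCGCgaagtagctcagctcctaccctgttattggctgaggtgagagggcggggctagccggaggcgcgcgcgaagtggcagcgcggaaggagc
Mcm5 (chr8:75109259-75109558, plus strand): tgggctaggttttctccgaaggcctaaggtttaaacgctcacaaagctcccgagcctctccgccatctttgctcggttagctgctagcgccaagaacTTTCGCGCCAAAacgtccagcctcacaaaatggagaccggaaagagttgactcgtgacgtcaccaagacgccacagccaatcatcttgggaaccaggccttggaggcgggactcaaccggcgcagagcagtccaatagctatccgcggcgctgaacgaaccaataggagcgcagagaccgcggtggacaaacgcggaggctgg

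Matches were not limited to the state-bound genes. Mcm6 had 3 matches and Rfc3 had 2, although both were at the broad end of the endothelial order, and Mcm5 had 2. Pclaf had 1, while the windows of Rrm2, Tk1 and Slbp held 0. Over the 30 genes found, 12 had a match, or 34.3% of their 35 windows, against 2.26% of all 32851 windows in the table. By state, 5 of 14 genes past 3-fold and 7 of 16 other genes had a match. The CCAAT word, on either strand, was in 62.9% of the windows of these genes and 37.4% of all windows. A match is a run of letters and not a measured binding site.

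Of 7 endothelial sub-clusters, again drawn without cycle genes, the one called e2 had the highest share of replicating cells among those with at least 10 thinned cells. It held 74 of the 114 replicating control cells but 145 of the 415 in Alk1 ECKO. This sub-cluster was led by S100a6, Mif, a cytokine, and Odc1, the first enzyme of polyamine synthesis, and no endothelial marker list named it. Its leading genes also included Dtymk, the thymidylate kinase gene, which was not among the genes left out of clustering. The sub-cluster was thus not drawn free of every gene tied to replication. Of its cells, 79.6% (69.9 to 87.2, 74 of 93) in control and 81.9% (75.4 to 87.3, 145 of 177) in Alk1 ECKO were replicating. Its 36 genes summed to 2489 CPM (2446 to 2533) and 2246 CPM (2218 to 2275). The sub-cluster with markers of barrier capillaries (e3) had 17.6% (12.3 to 24.1) and 14.0% (5.82 to 26.7) replicating cells, close to the rod background, with 560 and 450 CPM.

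The remaining sub-clusters were mostly of 1 library. The tip cell sub-cluster (e4), with genes of the leading cells of sprouts, held 188 Alk1 ECKO and 3 control cells, and 40.4% (33.3 to 47.8) of the former were replicating. A sub-cluster led by Apod (e0) held 373 and 5 cells, with 21.3% (17.2 to 25.9). That with MHC class II genes (e5), at a median of 2456 UMIs, held 181 and 1, with 57.0% (45.3 to 68.1) of the 79 cells deep enough. A shallow sub-cluster (e1) held 270 and 15, with 40.8% (32.8 to 49.2) in Alk1 ECKO, and in it Rgs5, a mural gene, stood at 104 CPM. The arterial sub-cluster (e6) had 2 of 16 control and 6 of 24 Alk1 ECKO cells replicating. The makeup of the class thus differed between the libraries: e2 was 29.8% of control and 14.1% of Alk1 ECKO endothelial cells, and e3 held 178 of 312 and 56 of 1273 cells.

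**Figure D4:**
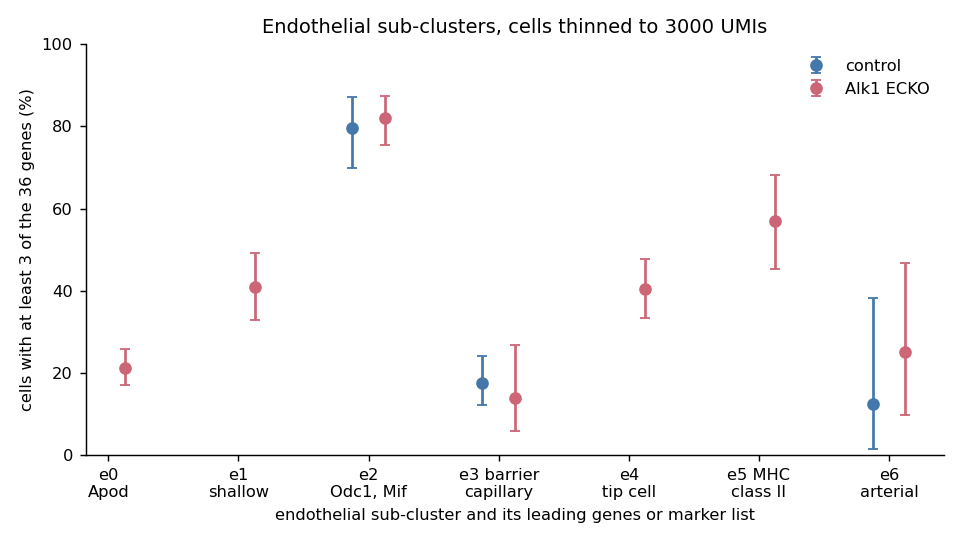
Percent of cells with UMIs of at least 3 of the 36 genes in 7 endothelial sub-clusters, after thinning to 3000 UMIs, with Clopper-Pearson intervals, in control (blue) and Alk1 ECKO (red). Sub-clusters with fewer than 10 thinned cells of a library have no point for it; e2 stands at 79.6% and 81.9% and e3 at 17.6% and 14.0%.

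Between the genotypes, the summed level of the 36 genes in endothelial cells moved with the median gene. The sum was 1553 CPM in control against 1325 CPM in Alk1 ECKO, a log2 ratio of -0.23 (-0.25 to -0.20), where the median over all 12535 measured genes was -0.21. Relative to that median the ratio was -0.01 (-0.04 to 0.01). A gene was called when its ratio was at least 25% above or 20% below the median with an interval off it. By this rule 10 of 36 genes were lower and 1 was higher in Alk1 ECKO, where 18.7% of all measured genes were lower and 20.8% higher. The 10 genes are 27.8% of the 36, and the higher gene 2.78%.

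The lower genes came from licensing (Orc1, Cdc6, Cdt1), helicase activation (Mcm10, Gins1), the polymerase gene Pola1, the single-strand binder Rpa1, Rrm1, Ccne2 and Uhrf1, a factor of maintenance methylation. Uhrf1 was at 37.0 CPM in control against 22.5 CPM in Alk1 ECKO (-0.50, -0.68 to -0.33). Cdc6 was at 13.2 and 7.57 CPM (-0.59, -0.89 to -0.29), and Rpa1 at 25.2 and 15.3 CPM (-0.50, -0.71 to -0.28). Orc1 had 31 and 50 UMIs (2.98 and 1.30 CPM, -0.99, -1.66 to -0.29). Gins2, a GINS subunit, was higher, at 28.5 and 31.0 CPM (0.33, 0.15 to 0.52), while Gins1 was lower, at 9.02 and 5.93 CPM (-0.39, -0.74 to -0.03). None of the 6 genes of the clamp and its loader was called, and Pcna lay at 111 and 99.6 CPM (0.06, -0.04 to 0.15).

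This split of calls depended on how cells were weighted. With the mean of per-cell CPM, which gives a shallow cell the weight of a deep one, 1 gene was lower and 8 were higher (19.5% and 18.4% of all genes), and the summed ratio was 0.14 (0.11 to 0.17). On that scale the intervals of Rpa1 (-0.06, -0.27 to 0.16) and Cdc6 (-0.26, -0.56 to 0.04) spanned 0. Without centring on the median gene, 17 were lower and 0 higher (34.7% and 9.33% of all genes). At 1.5-fold 2 of 36 were lower and 0 higher (9.03% and 9.09% of all genes). Transcript length moved with the ratio too. Over the 12527 measured genes with a length, Spearman's rho between log2 ratio and the length of the longest transcript was -0.41 in endothelial cells, and it was -0.41 in rods, -0.38 in microglia and -0.32 in glia and progenitors, so that long transcripts were relatively lower in Alk1 ECKO in all 4 classes. These rho values describe genes of the same 2 libraries, which are no independent points. Relative to genes of similar length, 7 of the 36 were lower and 2 higher in endothelial cells (14.6% and 16.2% of all genes). On that scale Rrm1 was at -0.23 (-0.34 to -0.12), Rpa1 at -0.29 (-0.51 to -0.08), Mcm6 at 0.36 (0.24 to 0.48) and Pcna at -0.23 (-0.32 to -0.13), where Pcna turned sign.

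The summed ratio varied between states and sub-clusters of the endothelial class. In cells with mitosis transcripts (166 control and 613 Alk1 ECKO) the summed ratio was -0.07 (-0.10 to -0.05), with 12 of 36 genes lower and 0 higher (17.6% and 19.8% of all genes). In cells without them (34 and 103) it was 0.11 (-0.12 to 0.34), with 0 of 12 measured genes called either way (10.1% lower and 11.4% higher among all genes). In sub-cluster e2 the ratio was 0.03 (-0.00 to 0.06), with 5 genes lower and 2 higher (15.1% and 16.5% of all genes), and in e3 it was -0.32 (-0.47 to -0.18), with 2 of 27 lower (5.85% of all genes). The other sub-clusters had few control cells: the ratio was -1.16 (-1.41 to -0.91) in e6 with 17 of them, 0.77 (0.43 to 1.13) in e1 with 15, -0.85 (-0.99 to -0.70) in e4 with 3, and above 0 in e0 and e5 with 5 and 1. Transcripts of rods in the endothelial class differed between the libraries: the 15 rod markers summed to 109 CPM in control against 17.8 CPM in Alk1 ECKO, with 0 and 1 of them at 0. The 15 mural markers summed to 9.02 and 56.6 CPM, with 3 and 0 at 0. The part of either in these ratios was not tested.

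**Figure D5:**
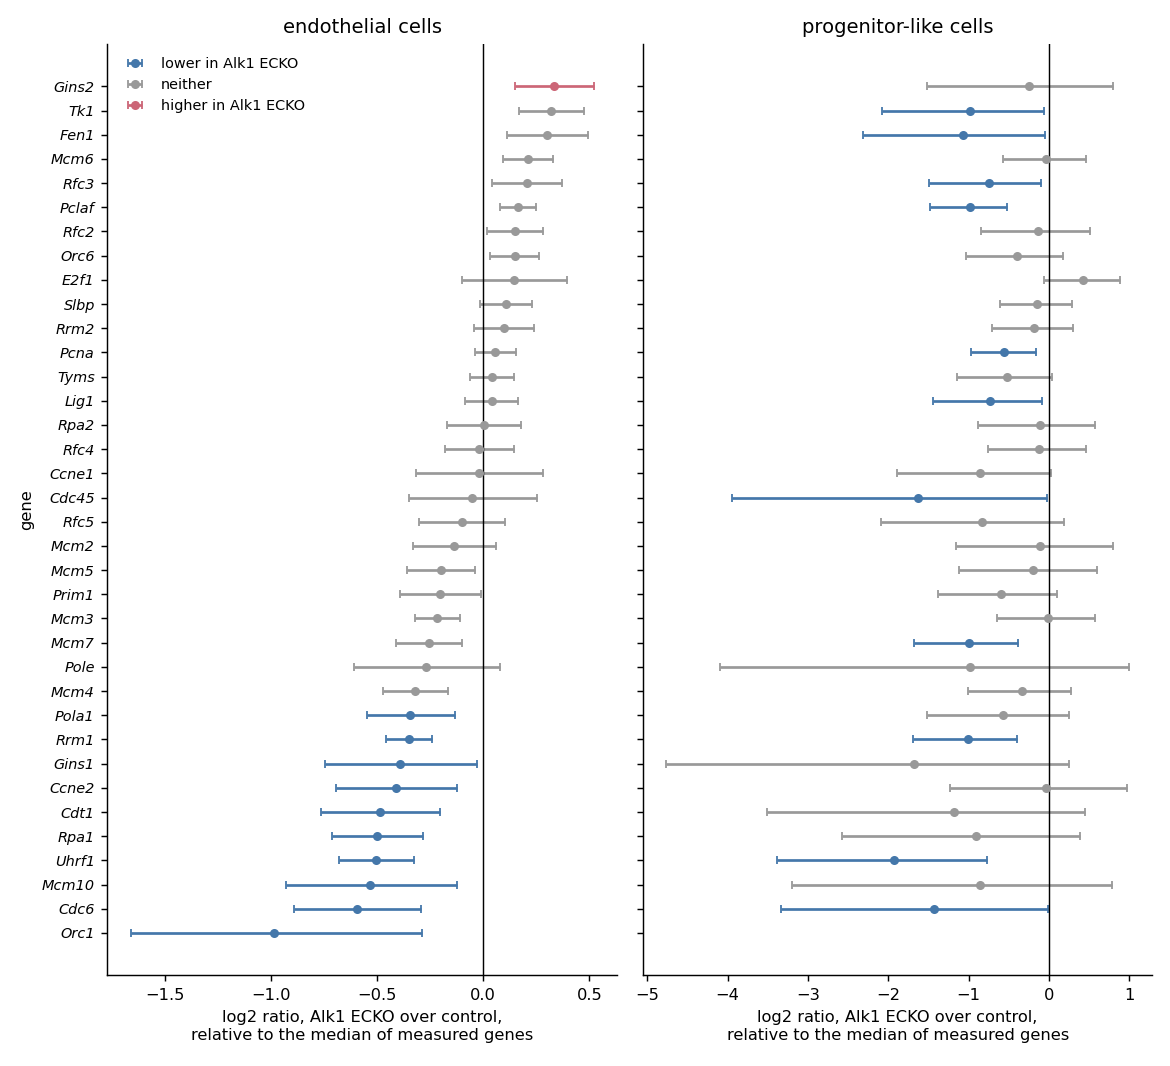
Log2 ratio of Alk1 ECKO over control for each of the 36 genes in endothelial (left) and progenitor-like cells (right), relative to the median of measured genes in the class (line at 0), with counting intervals; the horizontal scales of the panels differ. In endothelial cells 10 genes are lower (blue) and Gins2 is higher (red), in progenitor-like cells 11 are lower, and Orc1 was not measured there.

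In glia and progenitors the 36 genes were lower in Alk1 ECKO. Their sum was 1661 CPM (1627 to 1697) in control against 927 CPM (869 to 988), and relative to the median gene the log2 ratio was -0.65 (-0.75 to -0.55). Of 35 measured genes 19 were lower and 0 higher, where 9.54% of all genes were lower and 13.6% higher. Both clusters had a summed ratio below that of the median gene. In progenitor-like cells the ratio was -0.50 (-0.62 to -0.39), with 11 of 35 genes lower (7.43% of all genes), and in Müller glia-like cells -0.37 (-0.55 to -0.19), with 2 of 21 lower (6.49% of all genes). The count in Müller glia-like cells was near that share, on 290 UMIs of the 36 genes in Alk1 ECKO. The sums of these cells, 631 and 436 CPM, lay near those of rods, 520 and 539 CPM. In control 415 of the 810 cells of the class were progenitor-like, and in Alk1 ECKO 85 of 198.

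The 11 genes lower in progenitor-like cells spanned most roles. Uhrf1 was at 69.9 CPM in control against 16.3 CPM in Alk1 ECKO (-1.92, -3.39 to -0.77), on 6 UMIs in the latter. Pclaf was at 249 and 112 CPM (-0.98, -1.48 to -0.52), Mcm7 at 141 and 62.6 CPM (-0.999, -1.68 to -0.39), and Rrm1 at 142 and 62.6 CPM (-1.01, -1.69 to -0.40). Pcna was at 258 and 155 CPM (-0.56, -0.98 to -0.17). Rfc3, Lig1, Cdc6, Tk1, Cdc45 and Fen1 were lower as well. Against these, E2f1 was at 105 and 125 CPM (0.42, -0.07 to 0.88) and Mcm3 at 83.7 and 73.5 CPM (-0.01, -0.65 to 0.57). Cre was driven by an endothelial promoter, so these cells are not the ones targeted. The 15 rod markers summed to 781 CPM in control against 280 CPM in Alk1 ECKO progenitor-like cells (1 and 3 at 0), and the 9 erythroid markers to 205 and 95.3 CPM (2 and 4 at 0). The 19 Müller markers summed to 12804 and 15632 CPM (0 and 2 at 0), and the 15 mural markers to 481 and 670 CPM (6 and 11 at 0). The part of these lists in the result was not tested.

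Microglia and mural cells had values in the other direction, on few cells. In microglia the summed ratio was 0.39 (0.22 to 0.56), with 5 of 21 measured genes higher and 0 lower (12% and 11.5% of all genes). It was 1.13 (0.97 to 1.30) when the low-mitochondrial cluster, set aside here, was counted as microglia, its highest marker score. That cluster held 1243 Alk1 ECKO and 3 control barcodes. Its microglial (3.83) and endothelial (3.82) marker scores were nearly equal, so the 1.13 is no clean microglial value. The 5 higher genes were Mcm3, Mcm4, Rfc2, Lig1 and Gins2, and Gins2 rested on 5 control and 60 Alk1 ECKO UMIs (6.09 and 18.4 CPM). The mitosis list did not move with them, with 0 of 25 measured genes higher and 5 lower. The 15 rod markers summed to 352 and 111 CPM in microglia (1 and 1 at 0), and the 18 endothelial markers to 201 and 306 CPM (7 and 0 at 0), and their part in the result was not tested. In mural cells the ratio was 0.82 (0.61 to 1.04), with 4 of 30 higher and 0 lower (6.23% and 7.12% of all genes): Pclaf, Tk1, Tyms and Gins2. The 15 mural markers summed to 18296 and 11974 CPM in these cells (1 and 0 at 0), and their part in the result was not tested. There Pclaf was at 97.0 CPM (14 UMIs) in control and 398 CPM (955 UMIs) in Alk1 ECKO. In rods the summed ratio was 0.20 (0.08 to 0.32), with Pcna, Rpa2 and Orc6 higher and 0 lower of 23 (15.3% and 9.44% of all genes). In neurogenic precursors it was -0.05 (-0.29 to 0.18), with 0 of 10 called (11.8% higher and 5.84% lower among all genes).

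Other genes of the pathway were read from lists that hold none of the 36. In endothelial cells, 7 of 38 other replication genes were lower and 5 higher in Alk1 ECKO, with a median log2 ratio of -0.02, where 18.7% of all genes were lower and 20.8% higher. The lowest were Atad5, which unloads PCNA (24.1 and 12.6 CPM, -0.73), Wdhd1 (-0.69) and the origin-firing kinase Cdc7 (-0.68), and the highest Pold4, a polymerase delta subunit (67.0 and 94.7 CPM, 0.71), Rpa3 (0.53) and Tipin (0.43). Of 20 genes of nucleotide and chromatin assembly 2 were lower and 4 higher, against the same shares of all genes. Hells, a chromatin remodeller (56.3 and 33.6 CPM, -0.53), and the heterochromatin protein gene Cbx5 (-0.37) were lower. Shmt1 was at 6.62 and 4.51 CPM (-0.34, -0.75 to 0.08), and Asf1b (0.47), Nme1 (0.46) and Hat1 (0.39) were higher.

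Regulators of G1/S included Cdkn1a, the gene with the largest ratio of those named from these lists. Of 26 measured, 8 were lower and 5 higher, where 18.7% and 20.8% of all genes were. Cdkn1a, which encodes the cycle inhibitor p21, was at 73.6 CPM in control against 172 CPM in Alk1 ECKO (1.44, 1.33 to 1.55). Ccnd1, the gene of cyclin D1, was at 254 and 374 CPM (0.77, 0.71 to 0.83), and Cdkn2d, another inhibitor gene, at 32.5 and 40.9 CPM (0.55). The retinoblastoma gene Rb1 (-0.69), Ccnd2 (-0.57) and Rbl1 (-0.56) were lower. Of 79 measured mitosis genes 16 were lower and 9 higher, against those same shares. Mki67 (207 and 115 CPM, -0.64), Kif15 (-0.63) and Ncapd2 (-0.62) were the lowest, and Ube2c (134 and 211 CPM, 0.87), Cenpa (0.58) and Cdk1 (0.57) the highest.

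The mitosis list had larger counts in other classes. In glia and progenitors 71 of 79 measured mitosis genes were lower and 0 higher (9.54% and 13.6% of all genes), with a median log2 ratio of -1.30, and in progenitor-like cells 59 of 79 were lower and 1 higher (7.43% and 11.4% of all genes, median -0.96). In mural cells 50 of 75 were higher and 0 lower (6.23% and 7.12% of all genes, median 2.09). These counts rest on 11 control mural cells with 190 UMIs of the mitosis list. After thinning, 1 of the cells had at least 3 UMIs of it. In neurogenic precursors, where none of the 36 genes was called, 10 of 25 mitosis genes were lower and 1 higher (5.84% and 11.8% of all genes, median -0.85). Against the same shares of all genes in glia and progenitors, 15 of 36 other replication genes were lower and 0 higher, 5 of 20 of nucleotide and chromatin assembly were lower and 1 higher, and 6 of 24 of G1/S were lower and 2 higher. With 1 library per genotype, differences between these classes were not tested.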

How the data were processed

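The deposited matrices hold the authors' UMI counts of genes in barcodes. Their file headers give Cell Ranger 5.0.1. FastQC 0.11.9, the mm10 build and another Cell Ranger version, 6.1.1, appear in the submitters' processing notes. Whether intronic reads were counted is not given in the sources used here. Total counts were 54800465 and 62728605.

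Cells needed 1000 UMIs, 500 genes and no more than 10% of UMIs from mitochondria, which left 7909 control and 4237 Alk1 ECKO cells. Scrublet's own threshold called 0 and 2 doublets, so the highest scores were removed at 0.8% per 1000 cells (500 and 144). Both libraries were clustered together (scanpy 1.11.5, 3000 variable genes, 30 components, 15 neighbours, Leiden resolution 1; endothelial cells 0.6) without cycle genes. A cluster took the marker list with the highest mean log2 ratio to the median cluster (at least 1.5, 3 markers past 2-fold). Clusters under 1% mitochondrial UMIs, or with a second list at 2 or more, were set aside. The Müller glia cluster with over 2-fold the Fgf15 and Sfrp2 of the other was called progenitor-like. These rules were written after clusters had been seen. UMIs were summed per class and library as CPM. Intervals are exact Poisson, conditional binomial or Clopper-Pearson at 95%, and a 0 counts as 3 in ratios. Genes needed 30 UMIs over both libraries. The code for ratios and intervals was tested on simulated data.

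The 36 genes, the lists and the alternatives were chosen with earlier results of these data known. All 36 genes were named, and from each list the 3 highest and 3 lowest endothelial ratios among genes with at least 100 UMIs. The promoters shown are those of the genes with the largest and smallest ratio between endothelial states. Mcm5 was added after its value was seen, as were the Mcm7, E2f1 and microglial Mcm3 patterns. Gene positions and lengths are from GENCODE vM21.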

Additional observations from a re-analysis of the deposited data

Results flagged for a closer look

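Under the same contrast, the summed log2 ratio of the 36 genes was 0.82 in mural cells and 0.39 in microglia, but -0.65 in glia and progenitors; the classes moved in opposite directions, and this difference was not tested. The mural value rests on 11 control cells.

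Barcodes set aside from every class also held replication transcripts. In the cluster with under 1% mitochondrial UMIs, which held 1243 Alk1 ECKO and 3 control barcodes, the 36 genes summed to 1120 CPM (1084 to 1157) in Alk1 ECKO, and to 0 of 3572 UMIs in control. Its endothelial and microglial marker scores were nearly equal (3.82 and 3.83). In the endothelial cluster that also carried mural markers (81 Alk1 ECKO and 3 control cells) the sums were 1173 CPM (1144 to 1203) and 1039 CPM (909 to 1182).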

How the results depend on the processing

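Of 129 alternative values for the 10 main results, 92 stayed within their interval or within 1.5 times their count and 37 did not. No summed ratio that lay off 0 turned sign. Some of the 92 could not move, as with the total without the genes with the most UMIs. Values outside microglia could not move either when the low-mitochondrial cluster was counted in the class of its markers. With the mean of per-cell CPM the summed ratio was 0.14 in endothelial cells and -0.75 in glia and progenitors, with 1 gene lower and 8 higher in endothelial cells. Without centring these were -0.23 and -0.84, with 17 lower and 0 higher, and Pclaf (-0.050), Mcm6 (-0.0029) and Pcna (-0.16, from 0.06) turned sign; the shift is the median gene by construction. Relative to genes of similar length, an alternative added after the data were seen, the endothelial sum was -0.066, with 2 genes higher. The count of 1 higher gene became 2 without doublet removal, with at least 2000 UMIs per cell, at resolution 2, and without the MHC class II sub-cluster (added), 3 with low-mitochondrial clusters counted as endothelial (added), and 0 at 1.5-fold or with at least 100 UMIs per gene. At 1.5-fold 2 genes were lower, where 9.03% of all genes were lower and 9.09% higher. Counting the low-mitochondrial cluster as microglia, its highest marker score, gave a microglial ratio of 1.13. This added 1243 Alk1 ECKO and 3 control barcodes.

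Shares of replicating cells followed depth and the minimum number of genes. In endothelial cells they were 26.3% in control and 29.8% in Alk1 ECKO at 2000 UMIs, 54.3% and 59.7% at 5000, 56.8% and 58.4% with at least 2 genes, and 22.3% and 21.0% with at least 5. In glia and progenitors control gave 28.4% and 56.9% at those depths, Alk1 ECKO 38.3% at 5000, and both 56.7% and 43.9% with at least 2 genes and 21.7% and 7.32% with at least 5, control above Alk1 ECKO each time. With low-mitochondrial clusters counted as endothelial the Alk1 ECKO share was 44.4%. Genes past 3-fold between endothelial states numbered 18 (1.62% of all genes), but 30 at over 2-fold (2.48%) and 8 at 5000 UMIs (0.94%). The causes were not tested. Leaving out the genes with the most UMIs from the total cannot move a centred ratio. No paired analysis was possible because each genotype had 1 library, and leaving out a replicate was not possible for the same reason. Genes with few UMIs, such as Orc1, and classes with few cells, such as control mural cells, were limited by depth.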
